A study of Mus musculus with 6 samples.

Results

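The inflammasome and pyroptosis genes described here are 10 members chosen by symbol from the 49568 symbols of the count table: the sensors Nlrp3, Aim2, Nlrc4, Naip2, Naip5 and Nlrp1b, the adaptor Pycard, the inflammatory caspases Casp1 and Casp4, and the pore protein gene Gsdmd. Inflammasomes are protein platforms that assemble in the cytosol when a sensor meets a microbial product or a sign of cell damage. The assembled platform activates caspase-1, which matures interleukin-1β and interleukin-18 and cuts gasdermin D, and the freed end of gasdermin D forms pores that end in pyroptosis, a lytic form of cell death. Myeloid cells such as macrophages, which patrol the airspaces and the interstitium of the lung, are well known for this machinery, and inflammatory signals are known to raise the transcription of several of its parts beforehand, a step called priming.

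Whole lungs of 3 TNF+ and 3 TNF- mice were compared by bulk RNA-sequencing, with 1 poly(A) library per animal. All were females aged 4 months on a C57BL/6 background. TNF+ mice overexpress a human TNF transgene (TNF-Tg), and TNF- mice were wildtype littermates without it. The human transgene was not analysed here, and the cell types that express it are not given in the sources used here.

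Libraries held between 25396923 and 32529408 counts. The surfactant gene Sftpc was abundant in each lung (287103 to 514545 normalized counts), as the tissue label implies. Normalized counts are counts brought to a common library size after TMM scaling. A pair of libraries stood apart. The symbol Gm42418 held 5.22% of the counts of TNF+ lung 1 and at most 0.274% of any other. TNF- lung 1 held 105106 normalized counts over 6 squamous epithelium genes and 45546 over 6 skeletal muscle genes, where no other lung exceeded 234 and 994. Of 19199 genes tested with edgeR's quasi-likelihood test, 9096 passed an adjusted p of 0.05 (Benjamini-Hochberg), 4610 of them higher (24.0% of genes tested) and 4486 lower (23.4%) in TNF+ lungs. 

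All 10 genes were tested, and all 10 were higher in TNF+ lungs. In each of them the lowest of the TNF+ lungs exceeded the highest of the TNF- lungs, an arrangement found for 30.5% of all genes tested. All 10 also had a log2 fold change of at least 1, and 10.3% of all genes tested passed the cutoff with a rise of that size. The median log2 fold change of the 10 genes was 1.89, against 0.03 over all genes tested. Fold changes ran from 1.10 for Gsdmd to 2.95 for Nlrc4 on the log2 scale, and the other 8 lay between 1.51 and 2.15. In whole-lung RNA, more cells of a type and more RNA per cell cannot be told apart. Beside the 10 genes, all 5 pan-leukocyte genes examined (Ptprc, Laptm5, Coro1a, Cd53 and Cd52) and all 9 myeloid genes (among them Itgam, Adgre1, Csf1r and Tyrobp) rose as well. Of the myeloid calls 7 held under all 17 alternatives. Those of Fcgr1, whose groups overlapped, and Mertk were each lost in 6, Fcgr1 with the replicate block or without TNF+ lung 1 or 3 or TNF- lung 1 or 3, Mertk without any single lung except TNF+ lung 3, and both without the 2 lungs numbered 1. The summed level of the pan-leukocyte list was 64828 to 75807 normalized counts in TNF+ and 23042 to 29455 in TNF- lungs, and that of the myeloid list was 271409 to 297339 and 89562 to 90534. The part of these markers in the rise of the inflammasome genes was not tested.

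**Figure D1:**
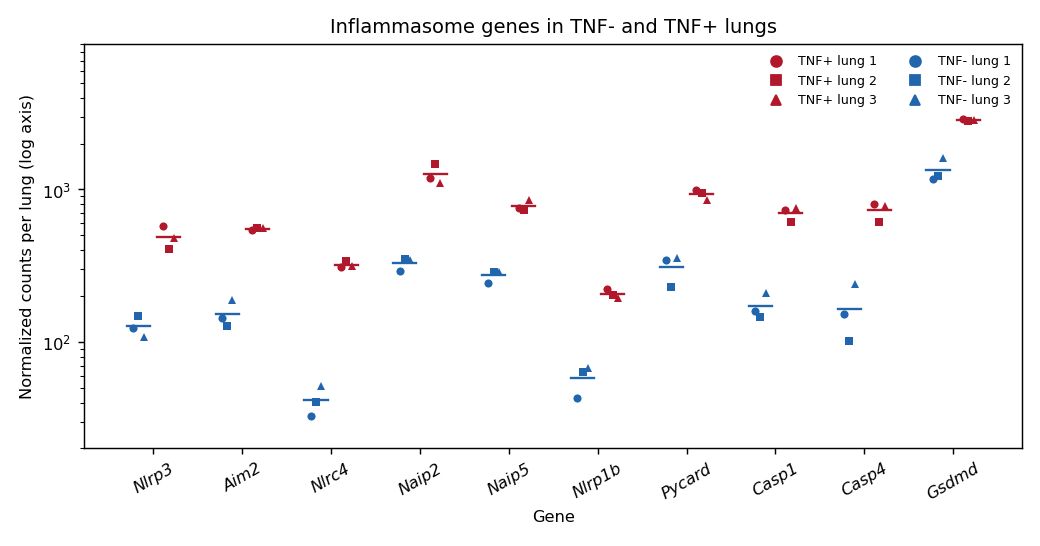
Normalized counts of the 10 inflammasome genes (log axis) in each of the 3 TNF- (blue) and 3 TNF+ (red) lungs, with symbols for lungs 1 to 3 and a horizontal line at each group mean. In every gene the 3 red points lie above the 3 blue points, with the widest separation for Nlrc4 and the narrowest for Gsdmd.

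Promoter sequences are shown for 4 members. Casp4 and Nlrp3 hold matches to the NF-kB consensus, and Naip2 and Naip5 sit side by side in a duplicated cluster. The sequences were taken from RefSeq start-site windows (GRCm38.p6, 250 bases before to 50 after a start), which covered 9 of the 10 members in 12 windows. Only bases before the start are printed, from 5′ to 3′ on the gene's strand. For Casp4 (chr9:5308699-5308848, plus strand) and for the upstream start of Nlrp3 (chr11:59541369-59541568, plus strand), capitals mark letters that match the NF-kB consensus on either strand. In Casp4 the first capital run holds 2 overlapping matches, at 93 and 92 bases before this start, and the second holds 1 at 39 bases. In Nlrp3 the match begins 186 bases before the start.
Casp4: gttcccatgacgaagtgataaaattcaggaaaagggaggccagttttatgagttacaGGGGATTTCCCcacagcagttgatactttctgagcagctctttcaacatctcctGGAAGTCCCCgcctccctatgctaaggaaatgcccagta
Nlrp3: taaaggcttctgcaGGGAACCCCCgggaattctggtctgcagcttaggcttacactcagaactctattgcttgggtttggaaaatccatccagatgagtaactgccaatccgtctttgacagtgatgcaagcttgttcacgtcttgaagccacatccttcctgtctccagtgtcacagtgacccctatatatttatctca
For Naip2 (chr13:100202123-100202222, minus strand) and Naip5 (chr13:100247337-100247436, minus strand), capitals mark 2 runs of at least 10 bases that both promoters share, 57 of the 100 bases shown, the longer run being 34 bases.
Naip2: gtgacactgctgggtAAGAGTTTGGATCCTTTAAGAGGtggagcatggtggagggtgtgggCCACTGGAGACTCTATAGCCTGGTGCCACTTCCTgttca
Naip5: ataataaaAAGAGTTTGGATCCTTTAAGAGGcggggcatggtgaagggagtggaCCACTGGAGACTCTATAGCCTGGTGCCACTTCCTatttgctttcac

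Over the full windows, the NF-kB consensus was matched in 4 of the 12 member windows (1 of Nlrp3, 1 of Naip5 and 2 overlapping ones of Casp4) and in 8.46% of the 32851 windows of all genes. GAGGAAG, the core letters bound by the myeloid factor PU.1, was matched in 4 of the 12 (Nlrp3 at its second start, Aim2, Nlrp1b and Pycard) and in 13.6% of all windows. The interferon-response core GAAANNGAA was matched in 1 of the 12 (Naip2), 4 bases before the start, and in 8.56% of all windows. TGANTCA, the letters of AP-1, was found in none of the 12 windows and in 7.81% of all windows. Both strands were searched for each, motif by motif, and overlapping matches were each counted. Letters in a window are a description of the sequence, and no binding was measured.

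Among the sensors, Nlrp3 answers to many kinds of membrane and ion disturbance and is the best known inflammasome sensor. Nlrp3 (ENSMUSG00000032691.14, chr11:59541568-59566956, plus strand, a protein-coding gene as all 10 are, with positions here and below from GENCODE M21 on GRCm38) had 579, 406 and 478 normalized counts in TNF+ lungs 1 to 3 and 124, 147 and 108 in TNF- lungs 1 to 3. The groups were apart, with TNF+ lung 1 the highest. The means were 488 ± 86.6 and 126 ± 19.2 (SD, n = 3), and the log2 fold change was 1.95 with a standard error of 0.19 (adjusted p = 0.000106, edgeR with Benjamini-Hochberg adjustment). Nlrp3 had the widest spread of the 10 genes among TNF+ lungs, with a coefficient of variation of 17.8%.

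Aim2 encodes the sensor of double-stranded DNA in the cytosol. Aim2 (ENSMUSG00000037860.15, chr1:173350879-173466040, plus strand) had 542, 557 and 558 normalized counts in TNF+ lungs and 144, 127 and 189 in TNF- lungs. The TNF+ lungs were almost level with each other (552 ± 9.08), while TNF- lung 3 stood above the other controls (153 ± 32.3). The log2 fold change was 1.85 with a standard error of 0.17 (adjusted p = 8.31e-05, edgeR).

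Nlrc4 is the partner that NAIP proteins recruit after they have bound a bacterial protein. Nlrc4 (ENSMUSG00000039193.9, chr17:74425438-74459142, minus strand) had 310, 338 and 316 normalized counts in TNF+ lungs and 32.5, 40.3 and 51.5 in TNF- lungs. No other of the 10 genes had as large a gap, with the lowest TNF+ lung 6.01 times the highest TNF- lung and the means 7.76-fold apart (321 ± 14.8 against 41.4 ± 9.58). The log2 fold change was 2.95 with a standard error of 0.20 (adjusted p = 2.39e-05, edgeR), and it stayed between 2.78 and 3.13 over all alternatives run. Raw counts of Nlrc4 in TNF- lungs were 34, 42 and 58, so that the smaller level rests on few reads.

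The NAIP proteins bind the bacterial ligands: NAIP2 the rod protein of type III secretion systems and NAIP5 flagellin. Naip2 (ENSMUSG00000078945.10, chr13:100144063-100202092, minus strand) had 1196, 1473 and 1107 normalized counts in TNF+ lungs and 290, 349 and 345 in TNF- lungs. Naip5 (ENSMUSG00000071203.6, chr13:100211739-100246323, minus strand) had 757, 730 and 847 in TNF+ and 244, 288 and 288 in TNF- lungs. The groups were apart in both genes, and TNF- lung 1 was the lowest lung in each. The log2 fold change of Naip2 was 1.94 with a standard error of 0.14 (adjusted p = 3.11e-05), and that of Naip5 was 1.51 with a standard error of 0.13 (adjusted p = 5.18e-05, both edgeR). The 2 genes lie 9.6 kb apart in a cluster with Naip6, Naip3 and Naip1, and 16.16% of the 100-base windows of Naip5 transcripts and 4.44% of those of Naip2 occur at another gene, chiefly other Naip genes. With 50-base windows these shares were 36.88% and 19.14%. Reads from these stretches could be split between copies or dropped, so each Naip value is uncertain. Naip1 (log2 fold change 1.81), Naip6 (1.47) and Naip3 (1.45) were also higher in TNF+ lungs.

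Nlrp1b encodes a sensor that is set off when its own N-terminal part is cut and degraded. Nlrp1b (ENSMUSG00000070390.12, chr11:71153102-71230733, minus strand) had 222, 203 and 194 normalized counts in TNF+ lungs and 43.0, 63.3 and 67.5 in TNF- lungs. The groups did not overlap, and TNF- lung 1 was again the lowest. Nlrp1b had a log2 fold change of 1.83 with a standard error of 0.22 (adjusted p = 0.000309, edgeR). Its neighbour Nlrp1a, 8.4 kb away, had 77.8, 55.8 and 71.7 normalized counts in TNF+ and 22.0, 31.6 and 16.0 in TNF- lungs (log2 fold change 1.56), and 0.05% of the 100-base windows of Nlrp1b were shared with it. With 50-base windows 1.45% occurred at another gene, chiefly Nlrp1a (1.2%).

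Pycard encodes ASC, the adaptor that joins most sensors to caspase-1 and gathers into a single speck in the cell. Pycard (ENSMUSG00000030793.4, chr7:127989708-127993867, minus strand) had 994, 951 and 859 normalized counts in TNF+ lungs and 344, 230 and 354 in TNF- lungs. The groups were apart, and TNF- lung 2 was the lowest. This gave a log2 fold change of 1.59, with a standard error of 0.18 (adjusted p = 0.000215, edgeR). An exon of the annotated gene Gm45205 on the opposite strand covers 485 exon bases of Pycard (12.76%). Gm45205 had at most 2 raw counts in any lung. The strand setting of the counts is not known, and reads over both genes could have been dropped. The low count of Gm45205 therefore does not show that Pycard lost no reads.

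Casp1 encodes the caspase that all canonical inflammasomes activate, and Casp4, known as caspase-11 in the mouse, encodes the caspase that binds lipopolysaccharide in the cytosol without a separate sensor. Casp1 (ENSMUSG00000025888.5, chr9:5298517-5307265, plus strand) had 732, 616 and 750 normalized counts in TNF+ lungs and 159, 146 and 210 in TNF- lungs. Casp4 (ENSMUSG00000033538.13, chr9:5308828-5336783, plus strand) had 804, 610 and 782 in TNF+ and 153, 101 and 240 in TNF- lungs. In both genes TNF+ lung 2 was the lowest of its group, TNF- lung 2 the lowest of the controls and TNF- lung 3 the highest of them, and the groups did not overlap. The log2 fold change was 2.03 with a standard error of 0.17 for Casp1 (adjusted p = 5.63e-05) and 2.15 with a standard error of 0.29 for Casp4 (adjusted p = 0.000628, both edgeR). Casp4 had the widest spread of the 10 genes among TNF- lungs, with a coefficient of variation of 42.8%, and its log2 fold change moved between 1.89 and 2.53 when single lungs were left out. Casp12, the next gene of this chromosome 9 cluster, rose less (log2 fold change 1.00, adjusted p = 0.00129, edgeR).

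Gsdmd encodes gasdermin D, the protein that both caspases cut to open pores in the plasma membrane. Gsdmd (ENSMUSG00000022575.5, chr15:75862327-75867408, plus strand) had 2899, 2827 and 2845 normalized counts in TNF+ lungs and 1173, 1232 and 1599 in TNF- lungs. The TNF+ lungs were almost level, with a coefficient of variation of 1.32%, and TNF- lung 3 stood above the other controls. The log2 fold change was 1.10 with a standard error of 0.13 (adjusted p = 0.000276, edgeR), and the lowest TNF+ lung was 1.77 times the highest TNF- lung, the smallest such ratio of the 10 genes.

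**Figure D2:**
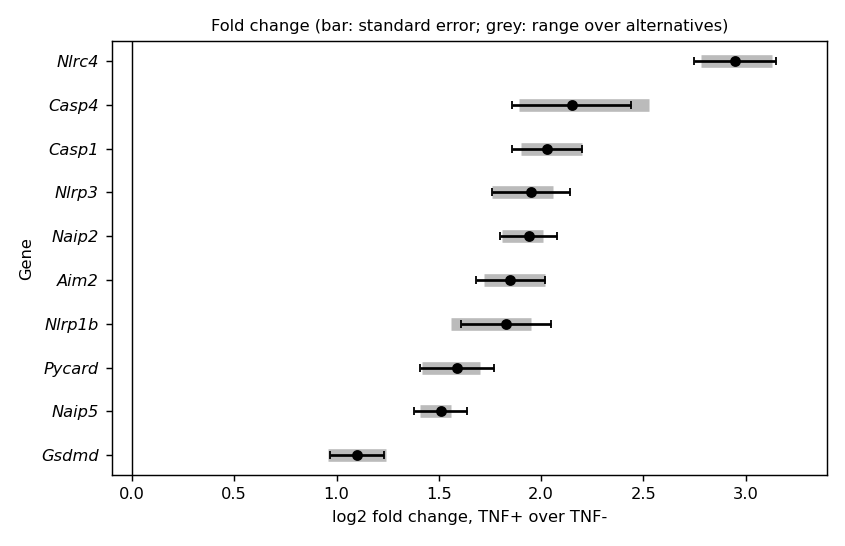
Log2 fold change of each of the 10 genes, TNF+ over TNF- lungs, from edgeR (black point) with its standard error (black bar) and the range over all alternative settings (grey). Nlrc4 at 2.95 and Gsdmd at 1.10 lie at the ends, and no grey range reaches 0.

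Relative to the group mean, controls varied more than TNF+ lungs in most of these genes. The TNF- coefficient of variation was above the TNF+ one in 8 of the 10 genes. By SD of normalized counts, only Aim2 (9.08 in TNF+ and 32.3 in TNF- lungs) and Gsdmd (37.6 and 231) varied more in controls. TNF- lung 3 was the highest control in 8 of the 10 genes (in Naip5 by under 1 normalized count), Nlrp3 and Naip2 being the exceptions. The shares of all genes with these patterns were not computed. TNF- lung 3 also had the highest pan-leukocyte sum of the controls (29455 against 23042 and 26384 normalized counts), while its myeloid sum (90534) was level with that of TNF- lung 1 (90514). Without TNF- lung 3 the 10 log2 fold changes ran from 1.24 to 3.13. Without TNF- lung 1, the lung with the squamous and muscle RNA, all 10 genes still passed the cutoff, and their log2 fold changes ran from 0.99 to 2.78.

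Levels of different genes were compared only after division by gene length, as TMM-scaled CPM per kilobase of exon. On this scale Gsdmd was the most abundant of the 10 in both groups (39.8 ± 0.523 in TNF+ and 18.6 ± 3.21 in TNF- lungs, SD, n = 3), followed by Casp1 (15.5 ± 1.61 and 3.79 ± 0.748). In TNF+ lungs Naip2 (8.59), Pycard (8.14), Casp4 (6.53), Aim2 (5.22), Naip5 (4.95), Nlrp3 (3.98), Nlrc4 (2.21) and Nlrp1b (1.08) came next by mean level. Of neighbours in that order, Naip2 and Pycard, Aim2 and Naip5, and Naip5 and Nlrp3 overlapped between lungs. In TNF- lungs the order below Casp1 was Pycard (2.69), Naip2 (2.24), Naip5 (1.74), Casp4 (1.47), Aim2 (1.45), Nlrp3 (1.03), Nlrp1b (0.304) and Nlrc4 (0.285). There Pycard overlapped with Naip2, Naip5 with Casp4, Casp4 with Aim2, Aim2 with Nlrp3, and Nlrp1b with Nlrc4. Nlrc4 thus overlapped with Nlrp1b in TNF- lungs and stood above it in TNF+ lungs. The median level of the 18634 genes with a length was 3.88 in TNF+ and 3.75 in TNF- lungs, and 8 of the 10 genes lay above it in TNF+ lungs and 2, Gsdmd and Casp1, in TNF- lungs. Nlrp3 passed it in TNF+ lungs (4.72, 3.31 and 3.90) and Casp1 in TNF- lungs (3.51, 3.22 and 4.63) by a margin inside its spread. The order depends on the length used. The exons of Casp4 together are 3710 bases and its longest transcript is 1901 bases, and with the latter its level was 12.7 in TNF+ and 2.86 in TNF- lungs, the third of the 10 in both groups. With longest transcripts Aim2 (6.44 and 1.79) also passed Naip5 (1.74) by mean in TNF- lungs, while Nlrp1b (1.58 and 0.444) and Gsdmd (52.8 and 24.6) rose in level but kept their places.

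**Figure D3:**
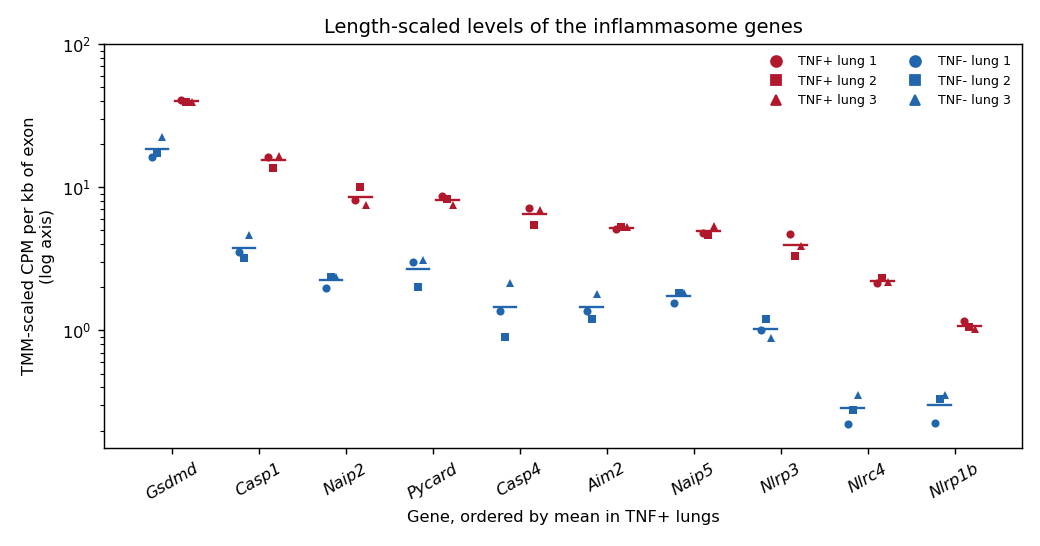
Length-scaled level of the 10 genes (TMM-scaled CPM per kilobase of exon, log axis) in each TNF- (blue) and TNF+ (red) lung, ordered by the TNF+ mean, with a line at each group mean. Gsdmd is highest in both groups, at 39.8 and 18.6, and Nlrc4 moves from 0.285 in TNF- to 2.21 in TNF+ lungs.

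Set against leukocyte markers, how many of the 10 genes overlapped between TNF+ and TNF- lungs depended on the markers used. For each lung, the mean log2 CPM of the 5 pan-leukocyte genes was subtracted from the log2 CPM of a member. The list mean itself was 1.72 higher in TNF+ lungs on the log2 scale. Relative to it, 7 of the 10 genes overlapped between the groups, and the median difference of the 10 was 0.16. Nlrc4 was higher in every TNF+ lung (-4.88, -4.60 and -4.72 against -6.02, -5.99 and -5.78 in TNF- lungs), a difference of 1.20. Casp1 was also higher, by 0.31, but by a thin margin, since its lowest TNF+ value was -3.74 and its highest TNF- value -3.80. Gsdmd was lower in every TNF+ lung (-1.67, -1.55 and -1.55 against -0.93, -1.12 and -0.88), a difference of -0.61. Of all genes tested, 3.02% lay above in every TNF+ lung on this relative scale and 89.7% lay below.

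The 9 myeloid and macrophage genes had risen further, by 2.24 in their mean. Relative to them Nlrc4 remained higher in every TNF+ lung, by 0.68, and Naip2 (-0.31), Nlrp1b (-0.42), Pycard (-0.63), Naip5 (-0.74) and Gsdmd (-1.13) were lower in every TNF+ lung. The gap was thin for Naip2, whose highest TNF+ value was -2.37 and lowest TNF- value -2.35. Nlrp3, Aim2, Casp1 and Casp4 overlapped, and the median difference of the 10 was -0.36. Of all genes tested, 1.79% lay above and 93.6% below on this scale. The choice of reference moved these values. Against Ptprc alone, which rose by 1.43, Nlrp3, Nlrc4, Naip2 and Casp1 were higher in every TNF+ lung and none was lower. On that scale 3.46% of all genes tested lay above and 84.5% below. Against Csf1r, Itgam and Tyrobp, a reference added after the values were seen, which rose by 2.72, none was higher, 8 were lower, and Nlrc4 (0.20) and Casp4 (-0.50) overlapped, where 1.09% of all genes tested lay above and 95.4% below. Gsdmd was below 0 against each of these 4 references and Nlrc4 above 0 against each.

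**Figure D4:**
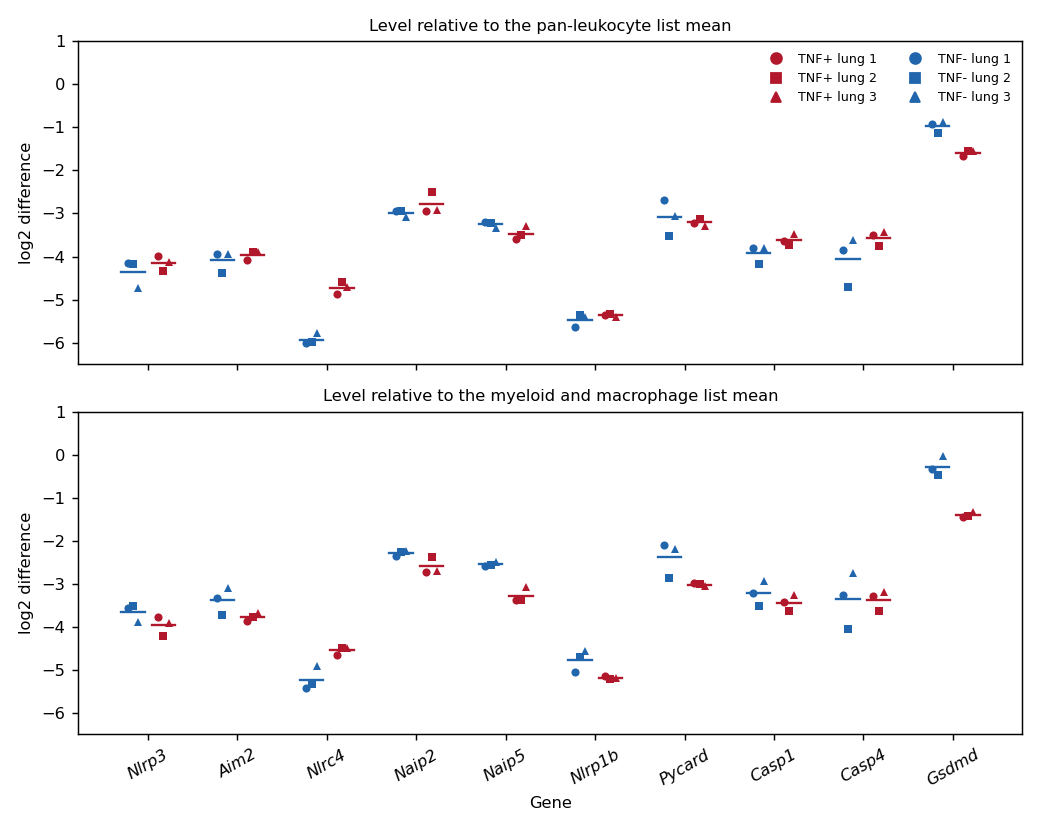
Log2 CPM of each of the 10 genes minus the mean log2 CPM of 5 pan-leukocyte genes (upper panel) or of 9 myeloid and macrophage genes (lower panel), per TNF- (blue) and TNF+ (red) lung, with a line at each group mean. Nlrc4 is higher in TNF+ lungs in both panels, by 1.20 and 0.68, and Gsdmd is lower in both, by differences of -0.61 and -1.13.

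Other cell type markers differed in direction. As background, 24.0% of all genes tested were higher and 23.4% lower in TNF+ lungs. The T cell list (5 of 6 higher), the B cell list (3 of 5) and the plasma cell list (3 of 4) rose in TNF+ lungs. Of 7 neutrophil genes 4 fell, among them S100a9 and Cxcr2, whose calls held under all 17 alternatives, while those of S100a8 and Retnlg were each lost without TNF+ lung 2, TNF+ lung 3 or TNF- lung 3. Csf3r passed the cutoff as higher, but its groups overlapped and the call was lost in 5 alternatives (without TNF+ lung 1 or 3, TNF- lung 1 or 2, or both lungs numbered 1). Of 5 NK cell genes, 3 fell. The alveolar macrophage list was split, with Marco and Chil3 higher and Siglecf and Car4 lower of 7. Genes of epithelium (6 of 7), endothelium (5 of 5) and mesenchyme (4 of 5) fell. Calls that did not hold under all 17 alternatives were those of Cd3d and Cd3g among T cell genes, Cd79b and Ms4a1 among B cell genes, Xbp1, Pecam1, and Col1a2 and Pdgfra among mesenchyme genes. The part of these shifts in the values of the 10 genes was not tested.

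The wider pathway was described by 66 further genes sorted by role. Of these, 65 were in the table and 56 were tested. In TNF+ lungs 34 of the 56 were higher, 5 lower and 17 did not pass the cutoff, with a median log2 fold change of 0.66. For comparison, 24.0% of all genes tested were higher and 23.4% lower. Among the 7 other sensors, 4 rose and 2 fell. The largest rise was in Mefv, which encodes the sensor pyrin, with 676, 679 and 954 normalized counts in TNF+ and 54.5, 32.6 and 33.8 in TNF- lungs (a log2 fold change of 4.26, adjusted p = 1.28e-05, edgeR). Nlrp6, a sensor best known from the gut epithelium, fell from 20.1, 12.5 and 24.0 to 2.64, 0 and 0.944 (2, 0 and 1 raw counts). Its fitted log2 fold change of -3.97 (adjusted p = 0.00217, edgeR) may depend on the prior count at such low counts, which was not varied in the fits. Without TNF+ lung 1 it was -4.99 and without TNF+ lung 2 it was -3.40. Nlrp12, which is often described as a brake on inflammatory signalling, fell from 32.5, 33.5 and 46.2 to 3.96, 3.10 and 7.55 (log2 fold change -2.88, adjusted p = 0.000762, edgeR). Both that fell had few counts, and both were removed by a filter of at least 10 counts in every lung. Nlrp10 did not pass the cutoff (0.47).

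Aim2 lies at the edge of a chromosome 1 cluster of interferon-inducible DNA-binding proteins, and these relatives did not move as one. Of 10 tested, 5 were higher, 2 lower and 3 did not pass the cutoff, against 24.0% higher and 23.4% lower among all genes tested. Ifi204 (1.82), Ifi207 (1.82), Ifi211 (1.39), Ifi205 (1.07) and Mndal (0.78) rose on the log2 scale. Ifi208 had 254, 203 and 251 normalized counts in TNF+ and 691, 660 and 438 in TNF- lungs, a log2 fold change of -1.34, and Ifi213 had -1.06. Ifi206, 2.4 kb from Aim2 and outside the list, had a log2 fold change of -0.53 and did not pass the cutoff (adjusted p = 0.0795, edgeR).

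Of the other caspases, Casp8 (0.66), known from apoptosis, rose along with Casp12. Ninj1, whose product tears the plasma membrane in the last step of lytic death, had 9470, 9361 and 6733 normalized counts in TNF+ and 895, 877 and 912 in TNF- lungs. The groups were far apart, with a log2 fold change of 3.25 and a standard error of 0.15 (adjusted p = 5.09e-06, edgeR). Gsdme rose by 1.21 from low counts (at most 46.3 normalized counts in any lung), and this call was lost when TNF+ lung 3 or TNF- lung 2 was left out. The other 8 genes of this list were not tested. Among them Gsdma (403 normalized counts) and Gsdmc (44.9) were found in TNF- lung 1, the lung with the squamous RNA, and at no more than 0.889 in any other.

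The cytokines that inflammasomes mature or release differed from each other. Il1b had 1304, 319 and 689 normalized counts in TNF+ and 102, 140 and 178 in TNF- lungs, with TNF+ lung 1 well above the rest of its group (log2 fold change 2.46, standard error 0.47, adjusted p = 0.00345, edgeR). Without TNF+ lung 1 the log2 fold change of Il1b was 1.81, and over all lungs left out in turn it reached 2.83 at most. Il1a rose by 1.68. Il18 had 367, 225 and 309 in TNF+ and 199, 199 and 200 in TNF- lungs, a log2 fold change of 0.59 (adjusted p = 0.0336, edgeR), and this call was lost in 8 of 17 alternatives.

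Of 19 positive regulators, 10 were higher and 9 did not pass the cutoff, where 24.0% of all genes tested were higher and 23.4% lower. Of the 10, Ticam1 overlapped between the groups and its call was lost in 10 of 17 alternatives, among them DESeq2 and each lung left out except TNF+ lung 1 and TNF- lung 2. The call of Irgm1 was lost in 5, among them without TNF+ lung 1, TNF- lung 1 or TNF- lung 2. Cd14, the lipopolysaccharide co-receptor, led with 2.65 on the log2 scale, followed by the channel gene Panx1 (1.90), Irf8 (1.06), Gbp5 (1.05), Zbp1 (0.86), Tlr4 (0.73) and the ATP receptor gene P2rx7 (0.71). Nek7 (0.26), the kinase that NLRP3 requires, and Txnip, Brcc3, Irf1, Irf2, Gbp2, Gbp3, Gbp7 and Hdac6 did not pass the cutoff. Of 11 negative regulators tested, 7 rose, 1 fell and 3 did not pass it. Tnfaip3, the A20 ubiquitin editor that restrains NF-kB, had 7516, 4960 and 5162 normalized counts in TNF+ and 416, 434 and 466 in TNF- lungs (a log2 fold change of 3.74, adjusted p = 5.76e-06, edgeR). Il1rn (1.82) and Il18bp (1.25), which encode the natural antagonists of interleukin-1 and interleukin-18, rose as well. Dpp8, whose peptidase product holds NLRP1 proteins inactive, was lower (-0.56, adjusted p = 0.0159, edgeR), a call lost without TNF- lung 2 or without both lungs numbered 1.

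**Figure D5:**
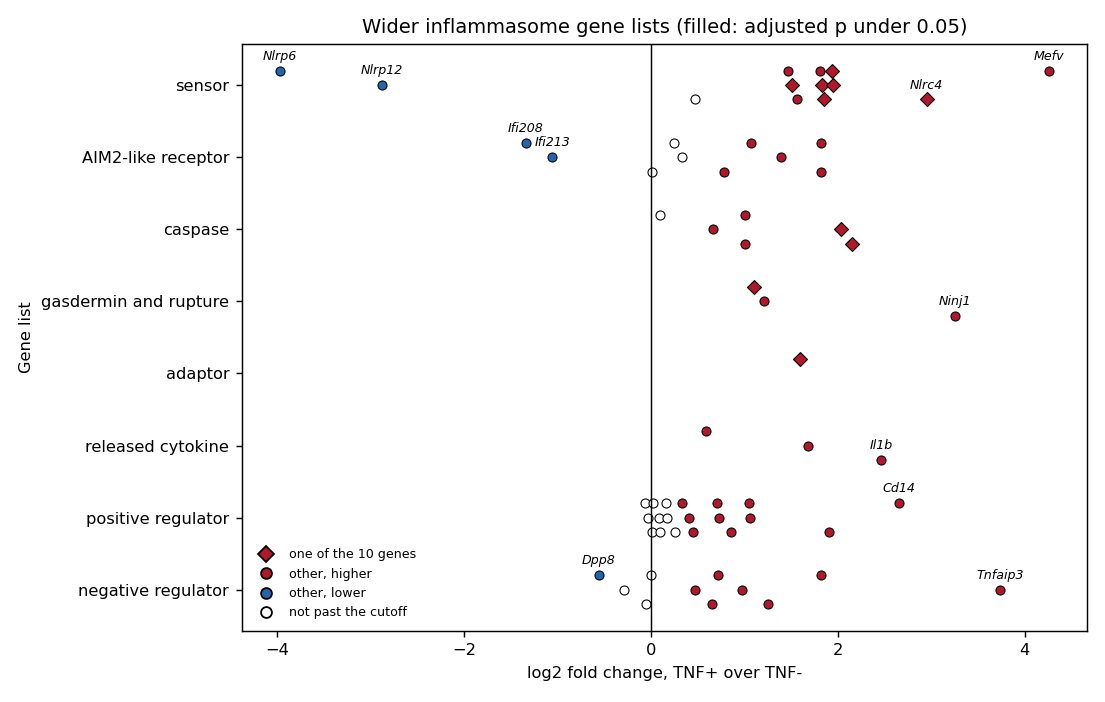
Log2 fold change, TNF+ over TNF- lungs, of the tested genes of each pathway list by role, with diamonds for the 10 genes, filled symbols for adjusted p under 0.05 (edgeR) and open symbols otherwise. Mefv (4.26), Tnfaip3 (3.74) and Ninj1 (3.25) lie further right than Nlrc4 (2.95), the furthest of the 10, and Nlrp6 (-3.97) and Nlrp12 (-2.88) lie furthest left.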

How the data were processed

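The authors extracted total RNA from whole lungs, prepared stranded poly(A) libraries and sequenced them as single-end reads, 1 library per mouse. Per the labels, Trimmomatic (version 0.36), STAR (version 2.5.2b), featureCounts and the build GRCm38.p5 were used (submitters' processing notes). The deposited file holds raw counts, whole numbers of reads per gene symbol, without normalization. The strand setting and the annotation behind the counts are not given in the sources used here.

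The 10 genes and all gene lists were chosen with earlier results of these data known, so no test was run over a list. The 10 genes and any gene of the lists may be named, with those of largest change first. Naip3, Ifi206 and Gm45205 were added as neighbours of members. The main test over the whole table was the quasi-likelihood test of edgeR (version 4.0.16, on R 4.3.3), with its filter on low counts (filterByExpr), TMM scaling, a model of genotype alone and p-values adjusted by Benjamini-Hochberg, called at 0.05. Standard errors were computed as the absolute log2 fold change over the root of the F statistic. Log2 CPM used a prior count of 2. Alternatives were DESeq2 (version 1.42.0, the study's tool), limma-voom (version 3.58.1), other scalings, filters and dispersion, the replicate number as a block and lungs left out. Gene models were GENCODE M21, and Gsdme was found under its older symbol. On simulated counts with 100 genes changed 2-fold and 100 changed 4-fold among 18937, edgeR recovered 51 and 86 with 16 false calls. Far fewer genes were changed there than the 9096 called between the lungs, so these rates need not carry over. The values of a few listed items are not reported here.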

Additional observations from a re-analysis of the deposited data

How the results depend on the processing

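All 10 inflammasome genes passed the cutoff in the same direction under every one of the 17 alternative fits and with a minimum log2 fold change of 1, and their log2 fold changes lay between 0.96 and 3.13 over these fits. The number of genes called over the whole table was 9096, and it was 4320 with an absolute log2 fold change of at least 1, 6064 without both libraries numbered 1, and 7347 to 9164 with single lungs left out. With the replicate block 7686 genes and all 10 inflammasome genes passed (log2 fold changes 1.11 to 2.97, largest adjusted p = 0.00306, edgeR). Equal numbers mark different animals, and deviations from the group means of same-numbered lungs correlated across genes at r = -0.149, -0.004 and -0.242. Of the wider pathway, the calls of Gsdme, Il18, Ticam1, Irgm1, Dpp8, Trim30a and Chmp4b were lost under at least 1 alternative, as were those of Nlrp6 and Nlrp12 under the stricter filter, by its construction. For the other losses the cause was not tested. With another reference, 7 of the members' values relative to the pan-leukocyte list and 9 of those relative to the myeloid list moved by more than the spread between lungs. Groups of 3 lungs limit precision.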
